A study of Mus musculus with 6 samples.

Results

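The nuclear genes of oxidative phosphorylation were examined for peaks of the transcription factor E2F1 by chromatin immunoprecipitation and sequencing (ChIP-seq). They were taken by symbol from the protein-coding genes of the GRCm38 RefSeq table on chromosomes 1 to 19 and X, as the genes beginning Nduf (with a, b, c, s or v and a number), Sdha to Sdhd, Uqcr, Cox4 to Cox8 and Atp5. The rule gave 87 of 21631 genes: 40 of complex I, 4 of complex II, 8 of complex III, 18 of complex IV and 17 of complex V. The rule misses subunits named otherwise, such as Cyc1 of complex III. The cells were NIH/3T3, an established line of mouse fibroblasts, carrying either a stably integrated doxycycline-inducible E2F1 construct or the inducible empty vector (EV). Both kinds of cells were held in 0.25% serum for 48 hours and then given doxycycline for 12 hours, at a dose on which the sources used here differ, so starvation and doxycycline are shared by all libraries. There were 2 libraries of each, and the labels state neither whether the integrated cells were 1 clone or a pool nor whether the replicates were separate cultures. The spread between replicates may therefore be technical. Peak lists hold no expression values, so the fibroblast identity of the cells was not checked here.

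Oxidative phosphorylation couples the passage of electrons to oxygen with the making of ATP in the inner mitochondrial membrane. Complex I takes electrons from NADH and complex II from succinate, complex III hands them to cytochrome c, complex IV passes them to oxygen, and complex V, the ATP synthase, makes ATP from the resulting proton gradient. Most subunits are encoded in the nucleus, and their promoters are textbook targets of NRF1, of GABP (also called NRF-2, of the ETS family) and of YY1, while E2F1 is best known as an activator of genes for DNA replication.

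A gene was counted when a peak lay inside it or within 1000 bp of it in both E2F1 lists. Promoter sequence from RefSeq was at hand for 70 of the 87 genes. For a gene without it, of the 87 or a neighbour, both gene ends counted as starts when the start nearest to a summit was sought. Shown first are the 250 bases before the start of the 3 genes that had peaks in both lists and an E2F word of the first set searched (Cox5a and Cox8a with TTTGGCGC, Ndufs3 with TTCCCGCC), with the word, on either strand, in capitals. They read 5′ to 3′ on the gene's own strand in GRCm38.p6, from chromosome 9, 57520982 to 57521231 (plus strand), chromosome 19, 7217617 to 7217866 (minus strand), and chromosome 2, 90904722 to 90904971 (minus strand).
Cox5a: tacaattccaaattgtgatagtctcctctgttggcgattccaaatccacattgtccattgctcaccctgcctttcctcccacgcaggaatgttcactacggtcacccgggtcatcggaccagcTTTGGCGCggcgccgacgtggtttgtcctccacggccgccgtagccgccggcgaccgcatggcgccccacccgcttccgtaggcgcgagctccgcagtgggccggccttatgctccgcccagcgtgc
Cox8a: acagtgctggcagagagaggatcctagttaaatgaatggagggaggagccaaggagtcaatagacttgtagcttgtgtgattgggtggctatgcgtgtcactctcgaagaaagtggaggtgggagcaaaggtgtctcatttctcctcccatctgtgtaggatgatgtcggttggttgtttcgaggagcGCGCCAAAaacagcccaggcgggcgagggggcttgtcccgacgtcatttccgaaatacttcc
Ndufs3: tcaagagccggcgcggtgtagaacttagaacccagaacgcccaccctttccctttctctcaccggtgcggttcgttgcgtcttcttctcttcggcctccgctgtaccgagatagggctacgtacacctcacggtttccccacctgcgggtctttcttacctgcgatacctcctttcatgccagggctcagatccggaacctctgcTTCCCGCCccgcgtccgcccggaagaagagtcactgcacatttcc

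The second set is the promoters of Atp5g1, Atp5g2 and Atp5g3, which encode the same mature protein, subunit c of the ATP synthase ring, and which differed in their peaks. They lie on the minus strand of chromosome 11, 96075632 to 96075881, chromosome 15, 102671048 to 102671297, and chromosome 2, 73911327 to 73911576. Capitals mark an E2F word in Atp5g1 (TTCCCGCC on the other strand), and in Atp5g2 overlapping NRF1 words and, nearer the start, the E2F word GCGGGAA on the other strand. No E2F word and no full NRF1, ETS or YY1 word lay in these bases of Atp5g3.
Atp5g1: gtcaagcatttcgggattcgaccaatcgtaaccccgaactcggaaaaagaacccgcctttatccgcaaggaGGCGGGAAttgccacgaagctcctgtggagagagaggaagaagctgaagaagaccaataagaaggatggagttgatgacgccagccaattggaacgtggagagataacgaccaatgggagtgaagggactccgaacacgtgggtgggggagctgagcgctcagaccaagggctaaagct
Atp5g2: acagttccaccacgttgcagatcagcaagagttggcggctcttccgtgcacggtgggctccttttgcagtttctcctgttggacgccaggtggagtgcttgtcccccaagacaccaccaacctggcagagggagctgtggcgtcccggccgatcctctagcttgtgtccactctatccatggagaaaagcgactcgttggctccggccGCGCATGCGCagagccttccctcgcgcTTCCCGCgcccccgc
Atp5g3: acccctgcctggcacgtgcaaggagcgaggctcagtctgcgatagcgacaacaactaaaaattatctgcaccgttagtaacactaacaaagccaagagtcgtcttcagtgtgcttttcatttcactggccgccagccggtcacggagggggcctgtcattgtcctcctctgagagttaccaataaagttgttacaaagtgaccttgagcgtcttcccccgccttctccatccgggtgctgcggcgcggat

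The E2F1 lists held 7836 and 8027 peaks in replicates 1 and 2, and the EV lists 70 and 358. The authors' lists give a fold enrichment of each peak over its local background, with no read totals. The control library behind each list is not given in the sources used here, so whether the background came from an input or from the library itself is not known. The pileup of reads and the background behind each peak were solved from the fold and its p-value. The lowest background of a list, which rises with depth, ran from 1.18 reads in EV replicate 2 to 2.20 in EV replicate 1, with 1.85 and 1.86 in the E2F1 libraries. No listed E2F1 peak with a solved pileup had fewer than 16 reads, and a gene without a peak may hold weaker signal that the lists do not show.

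Peaks in both E2F1 lists were found at 35 of the 87 genes (40.2%, Wilson 95% interval 30.6 to 50.7, counting error only), against 34.8% of all 21631 protein-coding genes. The share of the respiratory genes was near that of genes in general, and its interval held the general value. Replicate 1 had a peak at 42 of them, where 37.4% of all genes had one, and replicate 2 at 43, where 38.7% had one. In the EV lists, in which 0.037% and 0.411% of all genes had a peak, none of the 87 did in either replicate. The mean number of genes with a peak was 42.5 ± 0.707 (SD, n = 2) with E2F1 and 0 ± 0 (SD, n = 2) with EV. The groups did not overlap, and a two-sided exact permutation test of the 4 libraries returned p = 0.333. No smaller p is possible in a design of this size.

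**Figure D1:**
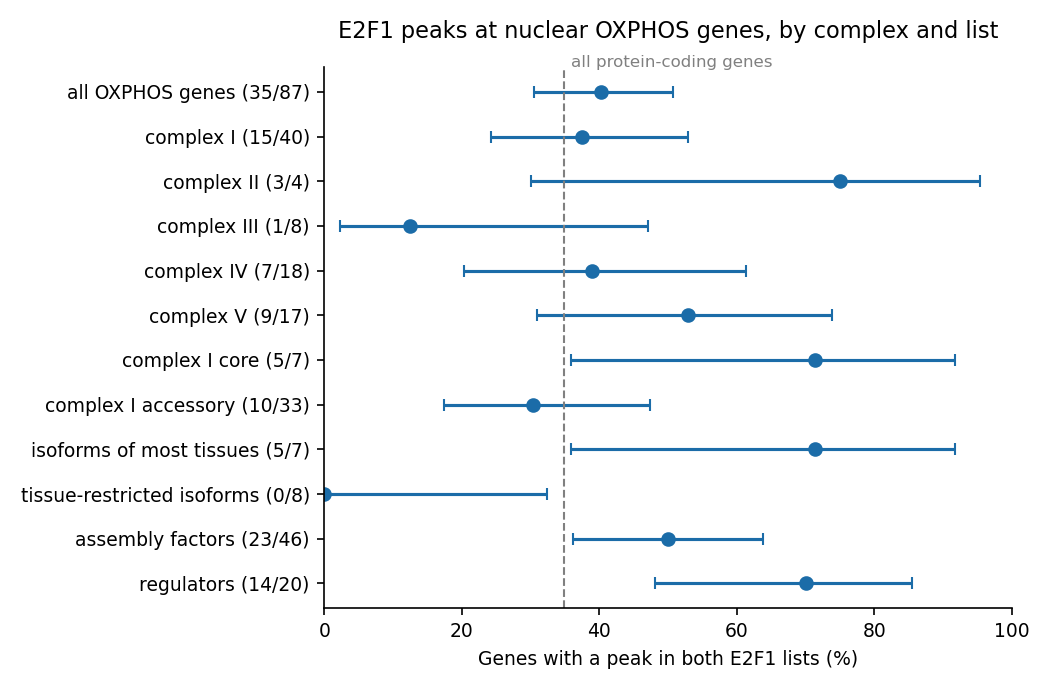
Share of genes with a peak in both E2F1 lists (x axis, percent) for the 87 oxidative phosphorylation (OXPHOS) genes, each complex and each gene list (y axis, with genes called over genes in the list). Points are shares, bars are Wilson 95% intervals and the dashed line is the 34.8% of all protein-coding genes, which lies inside the interval of every complex.

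By complex, 15 of 40 genes of complex I had peaks in both lists (37.5%, 24.2 to 53.0), 3 of 4 of complex II (75%, 30.1 to 95.4), 1 of 8 of complex III (12.5%, 2.24 to 47.1), 7 of 18 of complex IV (38.9%, 20.3 to 61.4) and 9 of 17 of complex V (52.9%, 31.0 to 73.8). All 5 intervals overlapped each other and held the general 34.8%. Complex III stood lowest and complex II highest, both on few genes.

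Complex I was led by peaks at gene boundaries shared with a neighbour. Ndufa4, counted here by its symbol although its protein is now placed in complex IV, had folds of 24.6 in replicate 1 (rank 503 by fold in the list) and 30.4 in replicate 2 (rank 799). The peaks spanned chromosome 6, 11906876 to 11908082 and 11906982 to 11908108, and both summits lay 7 bp from a start of the neighbouring Phf14, against 386 and 372 bp before the start of Ndufa4. Ndufb1, a small accessory subunit of the membrane arm, had folds of 23.1 (rank 604) and 24.5 (rank 1274) on chromosome 12, at 101975343 to 101976562 and 101975185 to 101976562. These intervals also reach Cpsf2, whose product takes part in cutting the 3′ ends of messenger RNAs.

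Ndufb6, another accessory membrane-arm subunit, had folds of 16.6 (rank 1382) and 20.8 (rank 1702), but at the far end of the gene. The summits lay 9784 and 9816 bp downstream of its start and 58 and 26 bp from a start of Smim27. Ndufb8, an accessory subunit, was among the lowest of complex I, with folds of 4.41 and 6.90.

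Of the 7 core subunits of complex I, which carry the flavin and the iron-sulfur clusters or bind quinone, 5 had peaks in both lists (71.4%, 35.9 to 91.8), against 10 of 33 accessory subunits (30.3%, 17.4 to 47.3), with 34.8% of all genes. The intervals overlapped, and the difference was not tested. With peaks at or above the median score the shares were close, at 1 of 7 (14.3%) and 4 of 33 (12.1%), beside 17.1% of all genes. Ndufv1, which binds NADH and FMN, had folds of 12.3 and 11.8. Ndufs1, the largest core subunit, had 12.1 and 9.46, at a boundary shared with Eef1b2. Ndufs3 had 8.76 and 6.70, with summits 131 and 59 bp before its start and 112 and 40 bp from a start of Kbtbd4. Ndufv2, an iron-sulfur subunit, differed most between replicates of all 35 genes, with 6.14 (rank 6194) and 23.8 (rank 1339). Ndufs8 was listed in replicate 1 alone and Ndufs7 in neither list.

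In complex II, which is also the succinate dehydrogenase of the citric acid cycle, Sdha, the flavoprotein, had folds of 5.15 (rank 7155) and 14.3 (rank 3054). Sdhb, the iron-sulfur subunit, had 4.46 (rank 7600) and 9.73 (rank 4720). For Sdhd, a membrane anchor, the folds were 6.34 (rank 5980) and 6.62 (rank 6491), and both summits lay nearer to a start of Timm8b, at 188 and 136 bp, than to that of Sdhd, at 240 and 188 bp. Sdhc, the other anchor, had no peak in either list. All 3 peaks were in the weaker part of the replicate 1 list, whose median fold was 9.19.

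In complex III only Uqcrh, the hinge protein, had peaks in both lists, with folds of 7.03 (rank 5352) and 14.7 (rank 2944). Their summits lay 718 and 459 bp before its start, and nearer to a start of Lrrc41. Uqcrfs1, the Rieske iron-sulfur protein, and Uqcr10 were listed in replicate 2 alone, with folds of 8.05 and 6.49. The core proteins Uqcrc1 and Uqcrc2 and the small subunits Uqcr11, Uqcrb and Uqcrq had no peak.

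In complex IV, the 3 highest genes had peaks with no other protein-coding gene boundary within 1000 bp. Cox7a2l, which helps to join complexes III and IV into supercomplexes, had folds of 28.0 (rank 338) and 25.4 (rank 1174) on chromosome 17, at 83513913 to 83514722 and 83514078 to 83514828. Cox8a, a small subunit of the membrane part, had 16.9 (rank 1344) and 23.5 (rank 1375), with summits 10 bp after and 18 bp before its start. Cox5a, a subunit on the matrix side, had 12.2 (rank 2539) and 25.2 (rank 1196). The Cox5a summits, 130 and 118 bp before the start, lay just before and just after the TTTGGCGC shown above in capitals, which occupies bases -127 to -120. At Cox8a the corresponding word, on the other strand, lay at -62 to -55. Cox4i1 was the lowest of complex IV by mean fold, with 11.3 and 6.02 on a boundary shared with Emc8, and Cox6a1 was next, with 5.44 and 12.0. Cox7c was listed in replicate 1 alone, with a fold of 5.97.

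Several complex IV subunits come in alternative forms, and all those with peaks were forms used in most tissues. Of the 7 genes for common forms (Ndufa4 among them), Cox4i1, Cox6a1, Cox7a2, Cox8a and Ndufa4 had peaks in both lists (71.4%, against 34.8% of all genes), and Cox6b1 and Cox7b had none. With peaks at or above the median score, 2 of the 7 remained (28.6%, against 17.1%). Of the 8 genes for tissue-restricted forms, Cox4i2, Cox6a2, Cox6b2, Cox7a1, Cox7b2, Cox8b, Cox8c and Ndufa4l2, none had a peak in any list (0%, 0 to 32.4). The difference was not tested. CpG content moved with it: the ratio of observed to expected CpG dinucleotides in the promoter was below 0.6 in all 4 restricted-form genes with a sequence (0.115 to 0.564) and in 1 of 6 common-form genes (0.368 at Cox7b, with the others up to 1.08). The part of CpG content in the difference was not tested.

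Complex V held the strongest peak of all 87 genes. Atp5j, coupling factor 6 of the stalk, had folds of 36.8 (rank 118) and 29.0 (rank 899) on chromosome 16, at 84834379 to 84836249 and 84834491 to 84835986. The same peak is the one counted for Gabpa, the DNA-binding subunit of GABP, whose boundary lies within 1000 bp, so it cannot be given to either gene alone. Atp5h, subunit d of the stalk, had 21.0 (rank 786) and 31.3 (rank 765), with summits 209 and 13 bp from a start of Kctd2. The lowest in complex V were Atp5c1, the gamma subunit of the rotor, with 5.96 and 6.34, and Atp5k, a small membrane subunit, with 5.14 and 4.88. Atp5b, the catalytic beta subunit, had 6.38 and 13.8. Atp5a1, the alpha subunit, was listed in replicate 1 alone with a fold of 4.49, and Atp5o in replicate 2 alone with 7.58.

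The 3 genes of subunit c differed. Atp5g2 had folds of 25.9 (rank 433) and 23.4 (rank 1396), with summits 121 and 115 bp after its start and no neighbour within 1000 bp. Atp5g3 had 8.01 (rank 4683) and 4.75 (rank 7778), with summits 169 and 170 bp after its start. Atp5g1 had no peak in any list. Its promoter holds an E2F word at bases -179 to -172, that of Atp5g2 holds one at -15 to -9, and that of Atp5g3 none of those searched.

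**Figure D2:**
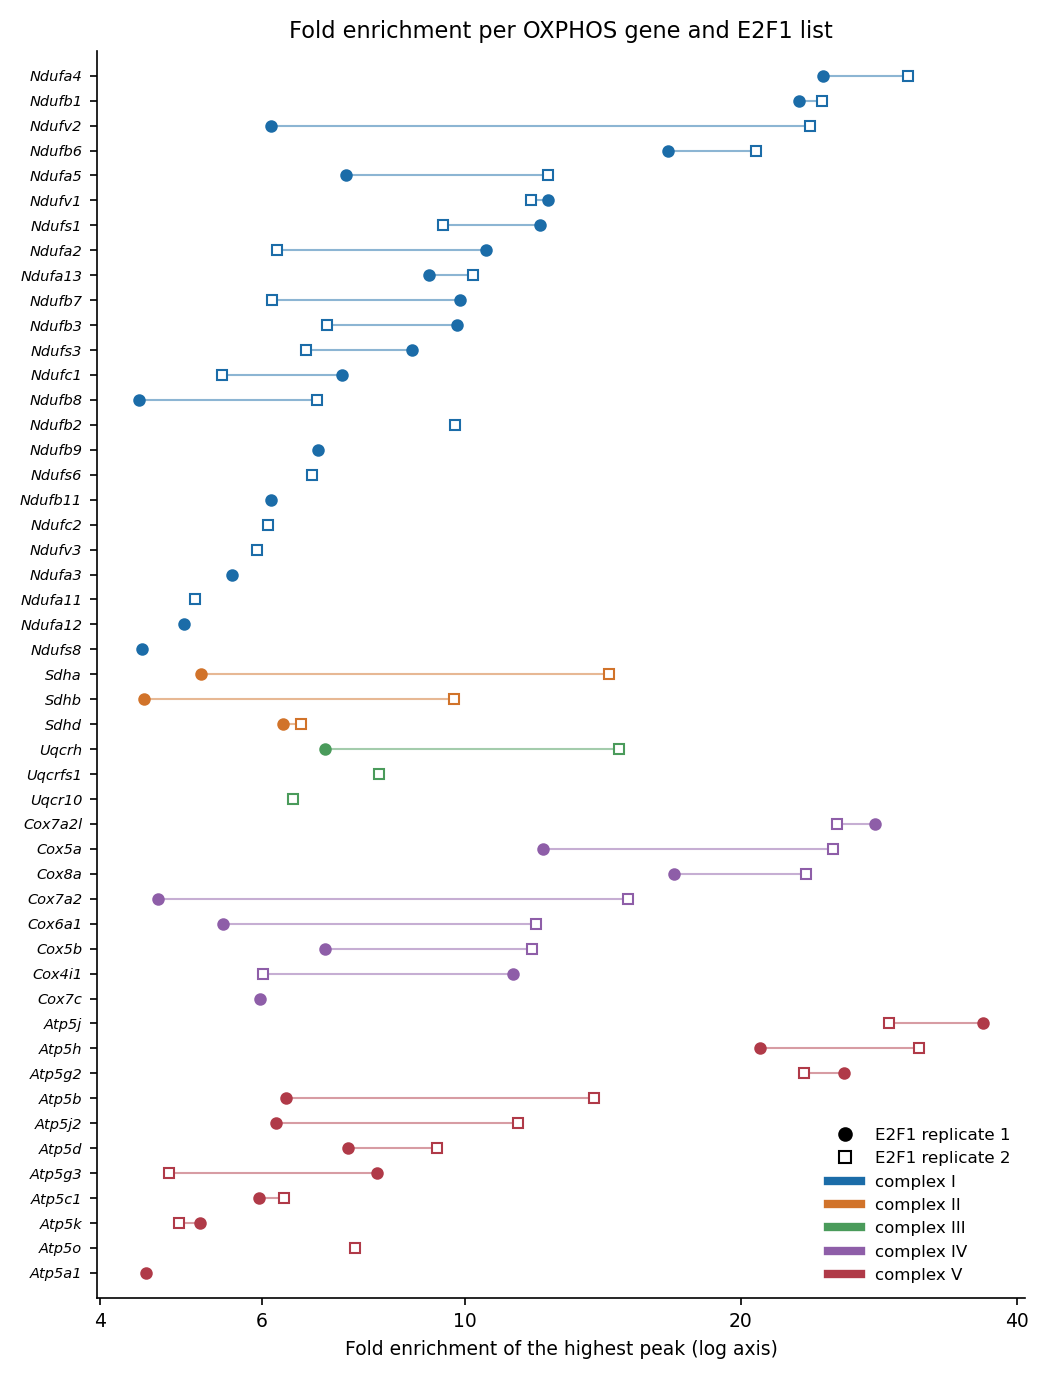
Fold enrichment of the highest peak (x axis, log scale) for OXPHOS genes with a peak in at least 1 E2F1 list (y axis), leaving out 1 gene that is not reported here, with filled circles for replicate 1, open squares for replicate 2 and colours for complexes. A line joins the replicates of genes listed in both; Atp5j, Atp5h, Atp5g2, Ndufa4, Ndufb1 and Cox7a2l lie above 20 in both lists.

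Peaks in 1 list only were common among these genes. They were found at 15 of 87 (17.2%), against 6.36% of all genes. In replicate 1 alone there were 7, with folds of 4.44 to 6.91 and pileups of 16 to 26 reads: Ndufa3, Ndufa12, Ndufb9, Ndufb11, Ndufs8, Cox7c and Atp5a1. In replicate 2 alone there were 8, with folds of 5.07 to 9.76 and pileups of 17 to 39 reads: Ndufa11, Ndufb2, Ndufc2, Ndufs6, Ndufv3, Uqcr10, Uqcrfs1 and Atp5o. These values lie in the lower part of each list. Neither list had a peak at 37 of the 87 genes, a smaller share than in general, where 12719 of 21631 had none. Besides those named above, the 37 were Ndufa1, Ndufa6, Ndufa7, Ndufa8, Ndufa9, Ndufa10, Ndufb4, Ndufb4b, Ndufb4c, Ndufb5, Ndufb10, Ndufs4 and Ndufs5 of complex I, Cox6c of complex IV, and Atp5e, Atp5l, Atp5md, Atp5mpl and Atp5pb of complex V. Ndufb4b and Ndufb4c are short gene models of 471 and 485 bp that by name are copies of Ndufb4, and reads may not separate near-identical copies.

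The 35 genes with peaks in both lists were of moderate to low enrichment. The values given here passed the authors' filter and are a description only. Their median fold was 8.01 in replicate 1 (4.41 to 36.8) and 11.8 in replicate 2 (4.75 to 31.3), beside 10.2 and 13.1 over all 7537 genes with peaks in both lists. Both folds were at or above the list's own median in 10 of the 35 (28.6%), beside 46.4% of the 7537 genes. With only peaks at or above the median score of all E2F1 peaks, 312, 11 of the 87 genes kept peaks in both lists (12.6%), against 17.1% of all genes. The share lay above that of genes in general over all listed peaks, where its interval held the general value, and below it over the stronger ones. Neither difference was tested. Complexes II and III had no gene left over the stronger peaks. Over these the median fold of the 11 genes was 1.37 and 1.19 times that of all genes kept, in replicates 1 and 2. Over all listed peaks the same ratios were 0.786 and 0.899. Asking the peaks of the lists to overlap reciprocally by 50% left 26 genes (29.9%), against 32.2% of all genes.

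Pileups of these genes ranked alike in the replicates, and local backgrounds less so. Across the 35 genes, Spearman's rho between replicates was 0.85 for the pileup, 0.25 for the local background and 0.47 for the fold, each over genes that share 2 libraries, so no p is given. Over 7304 genes with solved values the same figures were 0.86, 0.29 and 0.68. At 8 genes (Ndufv2, Cox7a2, Sdha, Cox6a1, Sdhb, Atp5b, Uqcrh and Cox5a) the fold was more than 2 times as high in replicate 2, by 2.07 to 3.88 times. There the pileup in replicate 2 was 0.968 to 1.68 times that in replicate 1, and the background 0.321 to 0.584 times. The 8 were picked by fold, the ratio of pileup to background, so a low background ratio follows in part from the choice. Over the 35 genes the pileup ratio ran from 0.585 (Atp5g3) to 2.01 (Cox8a). The background ratio ran from 0.321 (Ndufv2) to 1.88 (Ndufc1). No gene had a fold more than 2 times as high in replicate 1. These counts were not taken over all genes. Folds were higher in replicate 2 at 21 of the 35 genes (60%), beside 70.9% of the 7537 genes in general. The median fold of all peaks was 9.19 in replicate 1 and 11.3 in replicate 2.

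**Figure D3:**
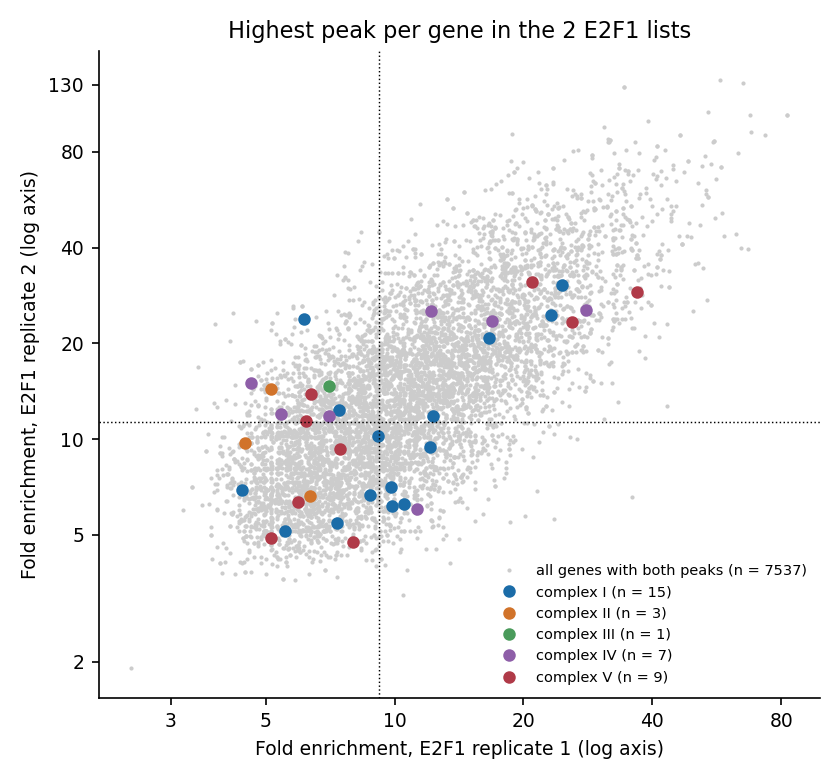
Fold enrichment of the highest peak per gene in E2F1 replicate 1 (x axis) and replicate 2 (y axis), both on log scales, for the 7537 genes with peaks in both lists (grey) and the 35 OXPHOS genes (coloured by complex). Dotted lines are the median folds of all peaks in each list, 9.19 and 11.3; 10 OXPHOS genes lie at or above both.

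The peaks lay close to gene starts, as for other genes. Strand and start were known for 31 of the 35 genes. The summit was within 250 bp of the gene's own start at 24 of them in replicate 1 (77.4%) and 26 in replicate 2 (83.9%), beside 65.7% and 72.0% of all 6156 genes with peaks in both lists and a known start. The median position was 62 bp after the start in replicate 1 and 4 bp in replicate 2, beside 130 and 57 bp. Peaks were then restricted to 1000 bp around the start, or around either end of a gene without a known start. This left 33 of the 87 genes (37.9%), against 32.4% of all genes, and Ndufb6 was among those removed.

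**Figure D4:**
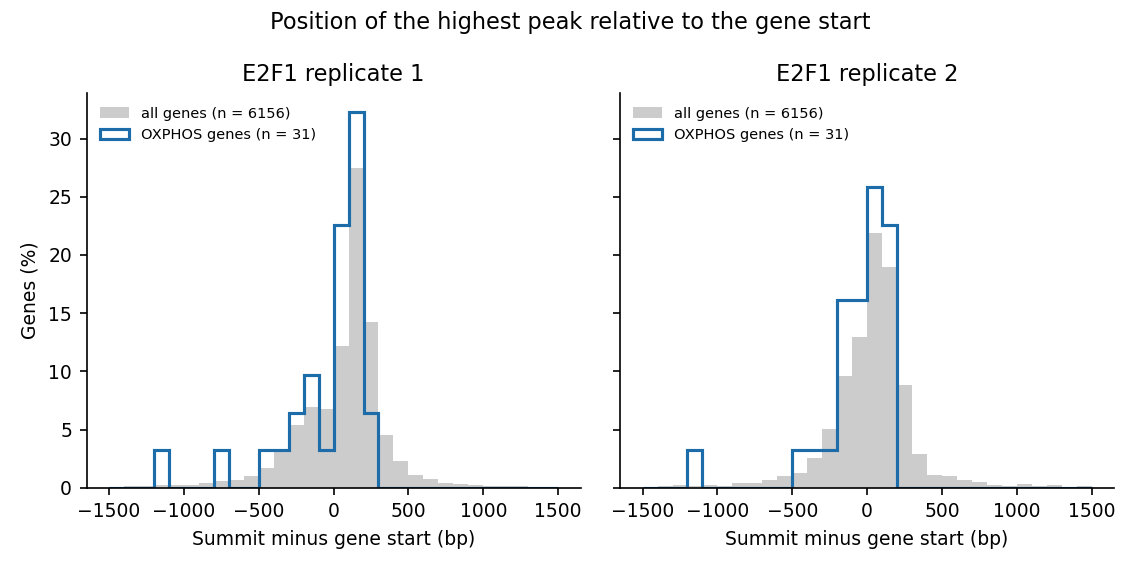
Distance of the summit of the highest peak from the nearest start of the gene (x axis, bp, positive after the start, in steps of 100 bp) in the E2F1 lists, as percent of genes (y axis), for 31 OXPHOS genes (blue line) and all 6156 genes with a known start (grey). Most summits of both fall between 250 bp before and 250 bp after the start; Ndufb6, at 9784 and 9816 bp, and Atp5d, at -3004 and -2891 bp, lie outside the axis.

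Many of the peaks also lay near a neighbouring gene. At 17 of the 35 genes (48.6%) the peak came within 1000 bp of the boundary of another protein-coding gene in both lists. At 11 the summit was nearest to the start of another gene in both, with both ends counted for genes without a known start. Neither share was computed over all genes with peaks in both lists. Of the 10 genes highest by mean fold, 5 had another gene's boundary that near the peak: Ndufa4, Ndufb1, Ndufb6, Atp5h and Atp5j. Among genes with a known start, 12 of the 26 with another boundary within 1000 bp of it had peaks in both lists (46.2%), and 19 of the 44 without (43.2%). Over all genes the shares were 61.4% and 31.3%. Read the other way, 12 of the 31 genes with peaks in both lists and a known start had such a boundary, beside 1517 of 6156 in general. With or without a peak, 26 of the 70 genes with a known start had one, beside 2471 of 17274 in general. Such boundaries were thus more frequent at these genes whatever their peaks. At Atp5d the highest peak had its summits at -3004 and -2891 bp from the RefSeq start used, nearest to a start of Cbarp. These summits lay inside the gene model, 573 and 686 bp from its nearer boundary. A weaker peak, with folds of 5.10 and 7.23, lay at -712 and -717 bp from the start used.

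The shares were also taken by the CpG content of the promoter. Of the 56 genes whose promoter had a CpG ratio of at least 0.6, 28 had peaks in both lists (50%, 37.3 to 62.7), against 60.7% of all 8890 genes with such promoters. Of the 14 below 0.6, 3 had (21.4%, 7.57 to 47.6), against 9.08% of 8384. Both intervals held the general share. The 3 were Ndufb7, Sdhb and Atp5j2, with ratios of 0.521, 0.571 and 0.584, near the limit of 0.6, and the median ratio of the 14 was 0.520, beside 0.236 over the 8384. The median ratio of the 70 genes was 0.801, beside 0.617 over all 17274 genes with a promoter sequence. It was 0.842 in the 31 with peaks in both lists and 0.744 in the 26 with none. The respiratory genes were also shorter than most, with a median length of 7131 bp beside 17329 bp. The part of either in the shares was not tested.

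**Figure D5:**
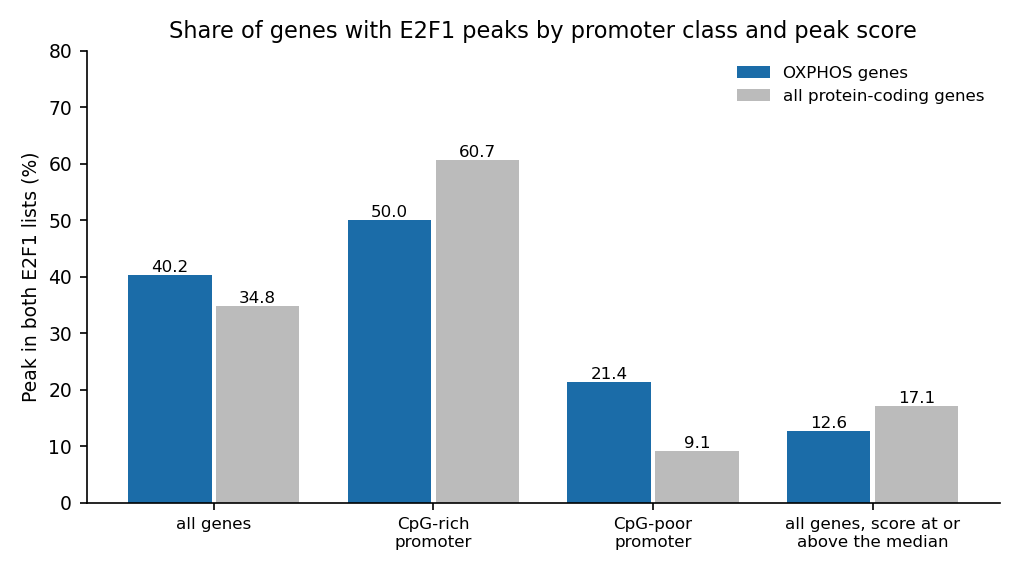
Share of genes with a peak in both E2F1 lists (y axis, percent, bars from 0) for OXPHOS genes (blue) and all protein-coding genes (grey), over all genes, by CpG-rich (ratio at least 0.6) or CpG-poor promoter, and with peaks at or above the median score. The blue bar is above the grey over all genes (40.2 and 34.8) and for CpG-poor promoters, and below it for CpG-rich promoters (50 and 60.7) and strong peaks (12.6 and 17.1).

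Promoters, from 250 bases before to 50 after the start, were searched on both strands for words of 4 factors. An E2F word (TTTCCCGC, TTTGGCGC, TTTCGCGC, TTCCCGCC or TTGGCGCC, which can overlap) was in 4 of 70 (5.71%), beside 6.07% of all 17274 genes with a sequence. It was in 3 of the 31 genes with peaks in both lists (9.68%), beside 11.0% of the 6156 genes in general with such peaks, and in 1 of the 26 with no peak (3.85%), beside 2.96% of 10006. With another set of E2F words (GCGGGAA, GGCGCGAA or GGCGCCAA), of which GCGGGAA is part of some words of the first set and GGCGCCAA is TTGGCGCC on the other strand, 7 of the 31 held at least 1 (22.6%), beside 15.4% of the 6156. These 7 were Atp5g2, Atp5j, Atp5j2, Atp5k, Cox5b, Ndufs3 and Sdha. NRF1 and YY1 words were in larger shares of the respiratory promoters than of promoters at large. The NRF1 word GCGCATGCG was in 8 of 70 (11.4%), beside 2.63% of all genes, and the YY1 word AAGATGGCG in 7 (10%), beside 2.15%. The ETS word CCGGAAGT, for GABP, was in 5 (7.14%), beside 5.76%. The NRF1 word was in 3 of the 31 genes with peaks in both lists (9.68%) and 4 of the 26 without (15.4%), beside 4.55% and 1.23% of genes in general. With the shorter GCGCATG the order turned, with 7 (22.6%) and 5 (19.2%), beside 8.66% and 3.11% of genes in general. The YY1 word was in 3 (9.68%) and 3 (11.5%), beside 3.98% and 0.79%. The ETS word was in 4 (12.9%) and 1 (3.85%), beside 9.81% and 2.74%. Atp5g2, shown above, and Atp5k and Cox6a1 are the 3 with the NRF1 word and peaks in both lists. A match describes the letters and not a bound site, and these differences were not tested.

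The genes that build the complexes and those that regulate mitochondrial genes were set beside them. Of 46 assembly factors and related genes, 23 had peaks in both lists (50%, 36.1 to 63.9), against the 34.8% of all genes, and 9 had one in 1 list. With peaks at or above the median score, 12 of the 46 remained (26.1%), against 17.1% of all genes. Among those with CpG-rich promoters the share was 21 of 37 (56.8%), beside 60.7% of all such genes. Cox20, which helps to assemble complex IV, was highest, with folds of 33.6 (rank 176) and 32.7 (rank 691). Bcs1l, which inserts the Rieske protein into complex III, had 18.4 and 20.9, and Ttc19, also of complex III, 15.3 and 33.9. Cycs, cytochrome c, had 7.68 and 11.5. Ndufab1, a complex I subunit that the symbol rule misses, was counted in this list, with 12.0 and 13.3. At Surf1, Sco1 and Coa3, all of complex IV assembly, no peak was listed.

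Of 20 regulators of mitochondrial gene expression and DNA, 14 had peaks in both lists (70%, 48.1 to 85.5), against 34.8% of all genes, and 12 (60%) when only peaks at or above the median score counted, against the 17.1% of all genes. With CpG-rich promoters only, it was 68.8%, beside 60.7%. Gabpa, with the peak it shares with Atp5j, was highest in replicate 1. Gabpb1, its partner subunit, had folds of 30.9 (rank 244) and 31.4 (rank 758). Tfb1m, a methyltransferase of mitochondrial ribosomal RNA, had 22.1 (rank 675) and 40.2 (rank 387). Nrf1 had 12.1 and 31.8, Yy1 18.3 and 27.4, and Tfam, which packages mitochondrial DNA and starts its transcription, 23.6 and 10.4. Ppargc1a, the coactivator PGC-1 alpha, had no peak in either list, while Ppargc1b had 26.9 and 16.6. Over 78 genes for mitochondrial ribosomal proteins the share was 65.4% (54.3 to 75.0), with 21.8% for strong peaks only and 64.1% for CpG-rich promoters. None of the assembly, regulator and ribosomal genes had a peak in an EV list. These lists were not tested against the respiratory genes.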

How the data were processed

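E2F1 ChIP-seq libraries of NIH/3T3 cells, 2 with induced E2F1 and 2 with EV, were grouped by their titles; 2 input samples were not analysed here. The submitters' processing notes name FastQC, Trimmomatic, Bowtie2, MACS2 and ChIPseeker and the build mm10, without versions, which are not given in the sources used here. The authors deposited 1 list of peaks per library in 10 columns: the deposited score is the −log10 q-value multiplied by 10 and cut to a whole number, the deposited fold is the ratio of pileup to local background, and the deposited −log10 p-value starts just above 10 (10.0001 in E2F1 replicate 1). Weaker sites are missing.

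Peaks were assigned to genes of the RefSeq table of GRCm38.p6 (the assembly mm10 is based on) when any base lay inside the gene or within 1000 bp; the highest fold represents a gene. Gene starts and strand came from RefSeq promoter windows. Pileup and background were solved from fold, with a pseudocount of 1 read, and the Poisson upper tail; a whole-number pileup was found for 99.987% of peaks with −log10 p below 250 in E2F1 replicate 1 and for all in the other lists. The assignment and the solver were tested on simulated data. Shares carry Wilson 95% intervals, for counting error only, and are read beside the share of all genes; library counts were compared by an exact permutation test. Python 3.11.15, scipy 1.17.1 and statsmodels 0.14.6 were used. The members and lists were chosen with earlier results of these data known; the genes described were the highest 3 and lowest 2 by mean fold in each complex, all Sdh genes, isoform pairs and every gene listed once or never, except 1 gene whose own values are not reported here. The other subunits named with values (Ndufv1, Ndufv2, Ndufs1, Ndufs3, Atp5b, Atp5d and Atp5g3) and the assembly factors and regulators named were picked after their values were seen. The mitochondrial ribosomal genes and the CpG classes were added after the data were examined.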

Additional observations from a re-analysis of the deposited data

How the results depend on the processing

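Over 12 results, 82 alternatives were computed, and 71 stayed within the interval or spread of the value reported or on the same side of the threshold. For E2F1 against EV no p below 0.333 was possible. The side of the threshold was thus fixed in advance there, and only the sign could change. Intervals of the small complexes were wide (30.1 to 95.4 for II, 2.24 to 47.1 for III), so staying within them says little. With peaks at or above the median score, which removes weak peaks by construction, the share of genes with peaks in both lists fell to 12.6%. By complex it fell to 12.5% (I), 0% (II), 0% (III), 16.7% (IV) and 17.6% (V). The ratio of the genes' median fold to that of all genes with both peaks, averaged over the lists, went from 0.843 to 1.28. The second ratio rests on the 11 genes left. Asking the peaks of the lists to overlap reciprocally by 50% gave 29.9% for all genes (32.2% of genes in general) and 0% for complex III, which also had 0% with peaks inside the gene only. The shorter ETS word CCGGAAG was in 24.3% of promoters, beside 13.1% in general. The share in 1 list ran from 48.3% to 49.4% without one E2F1 replicate, and by complex from 50% to 50% (I), 75% to 75% (II), 12.5% to 37.5% (III), 38.9% to 44.4% (IV) and 58.8% to 58.8% (V). The difference in gene number between E2F1 and EV ran from 42 to 43 without one library. With the replicate block it was 42.5 (p = 0.5 by exact sign flips, which 2 pairs cannot lower); 1 value per library cannot show whether the numbers pair the libraries. The CpG split was chosen after the data were examined. The filter on p limits every count to strong sites.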
